A study of Mus musculus with 6 samples.

Results

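The interferon-induced GTPases are proteins that bind guanosine triphosphate and are made when cells receive an interferon signal. The 10 genes described here are Gbp2, Gbp3, Gbp4, Gbp6 and Gbp7 of the guanylate-binding protein (Gbp) family and Igtp, Irgm1, Irgm2, Iigp1 and Tgtp1 of the immunity-related GTPase (Irg) family. They were taken by name, as all array probes whose RefSeq accession maps to these symbols. All 10 were found, with 13 of the 39429 probes, among 20659 named genes on the array. The genes were chosen by their measured differences, since most of them were already known to read lower in the sleep fragmented hearts. The differences between the groups are therefore a description of these genes and carry no test.

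The arrays measured total RNA of the heart ventricles of 21-week-old female C57BL/6N mice, an inbred laboratory strain. One group had its sleep repeatedly interrupted for 5 weeks (sleep fragmented, 3 arrays) and the other was left undisturbed (control, 3 arrays). The labels name no genotype, transgene or drug. They do not say whether each array holds a separate animal, so standard errors and p-values cover only how far these 3 and 3 samples scatter, and that scatter may be technical. The comparison addresses what long-lasting sleep interruption changes in the transcripts of the ventricles.

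Guanylate-binding proteins are large relatives of dynamin that assemble on the vacuoles and membranes of intracellular pathogens and help to expose them to the cytosol. Irg proteins are smaller and act at the same vacuoles. Their effector members, among them Iigp1 and Tgtp1, coat and disrupt the vacuole. The regulatory members Irgm1, Irgm2 and Igtp, whose GTP-binding motif carries methionine in place of lysine, sit on the cell's own membranes and hold the effectors inactive there. Both families are induced strongly by interferon gamma, with Irf1 among the activators, and also by type I interferon, with Stat2 and Irf9 taking part.

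The arrays were not alike in depth or in tissue content. The share of probes well above background ran from 59.2% to 72.6%. Sleep fragmented replicate 1 was the dimmest array: the 75th percentile of its signals lay at 123, that of the others between 204 and 252. Signals are given here as multiples of that percentile, so that a value of 1 is the signal of a probe at the 75th percentile of its array. Ventricular muscle genes were bright on all arrays, with Myl2, the ventricular myosin light chain, at 109 to 195 times the percentile. The atrial myosin genes Myl7 and Myl4, which ventricle should largely lack, were high on replicate 2 of both groups (Myl4 at 176 and 128). Myl4 stood at 21.4 and 16.4 on replicate 3 of the sleep fragmented and control groups and at 0.968 and 0.920 on replicate 1, so its level followed the replicate number in both groups. Values below are also given without both replicate 2 arrays, which still leaves arrays that differ in these markers. All sleep fragmented arrays came from 1 scan and all controls from another, so scan and group cannot be told apart in any value below. In whole tissue, fewer cells of a type and less RNA per cell cannot be told apart either.

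The promoters found for 7 of the genes hold letters that interferon-activated factors are known to bind, and stretches of them are printed here. Whether these letters bear on the differences between the groups was not tested. RefSeq promoter windows of assembly GRCm38.p6, from 250 bases before to 50 bases after a transcript start, were found for 7 of the 10 genes (8 windows, since Gbp3 has 2 starts). Gbp4, Gbp6 and Iigp1 had no entry. Each window was searched for the core of the interferon-stimulated response element (GAAA, any 2 bases, then GAAA again, which reads TTTC, 2 bases, TTTC on the other strand) and for the gamma-activated site (TTCNNNGAA, which reads the same on both strands). Overlapping matches were allowed. The response element core lay in 7 of the 8 windows, 1 for each of the 7 genes, against 3.44% of 32851 windows of all genes. The gamma-activated site lay in 4 of the 8, against 8.3%. Of 9 windows of other genes of both families, 5 held the core and 3 the gamma-activated site. The window of the other Gbp3 start held neither.

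In Igtp, Irgm2 and Tgtp1 both motifs stood side by side, 2 bases apart. The same arrangement was found in Tgtp2, a near-identical neighbour of Tgtp1. It occurred in 5 of all 32851 windows (0.0152%), and the other one belongs to the predicted gene Gm12185; the arrangement was noticed in these windows before it was counted. These stretches are chr11:58199501-58199541 (plus strand) for Igtp, chr11:58214892-58214932 (plus strand) for Irgm2, chr11:48992304-48992344 (minus strand) for Tgtp1 and chr11:49064263-49064303 (minus strand) for Tgtp2. They are printed in the direction of transcription, with the letters of both motifs in capitals.
Igtp: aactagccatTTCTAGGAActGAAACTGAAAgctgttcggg
Irgm2: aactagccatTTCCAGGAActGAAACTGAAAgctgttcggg
Tgtp1: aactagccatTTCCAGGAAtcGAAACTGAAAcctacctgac
Tgtp2: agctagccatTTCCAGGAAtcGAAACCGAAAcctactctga
The stretches of Igtp and Irgm2 shared 40 of 41 bases and those of Tgtp1 and Tgtp2 shared 34 of 41. These genes are paralogs, so their promoters are not independent examples.

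The guanylate-binding protein genes Gbp2 and Gbp3, and Irgm1, held the response element core alone, and Gbp7 held it downstream of 2 gamma-activated sites. The stretches are chr3:142559989-142560024 (plus strand) for Gbp3, chr3:142620594-142620623 (plus strand) for Gbp2, chr3:142530220-142530302 (plus strand) for Gbp7 and chr11:48871425-48871460 (minus strand) for Irgm1. They are shown to compare the element across genes, with the same use of capitals.
Gbp3: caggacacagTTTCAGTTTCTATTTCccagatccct
Gbp2: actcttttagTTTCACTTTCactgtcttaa
Gbp7: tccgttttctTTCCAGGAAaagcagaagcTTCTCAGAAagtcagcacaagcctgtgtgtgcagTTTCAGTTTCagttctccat
Irgm1: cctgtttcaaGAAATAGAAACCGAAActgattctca
In Gbp3 and Irgm1 there were 2 overlapping matches of the core. A match describes the letters of a window and does not show that a factor bound there in these hearts.

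As a set, the 10 genes had lower signals in the sleep fragmented hearts. Each gene is represented by its brightest probe. All 10 log2 differences (sleep fragmented minus control) were negative, from -1.15 to -0.11, with a median of -0.51, while the median over all 25230 probes compared was 0.078. For 4 of the 10 genes (Gbp3, Igtp, Irgm1 and Irgm2) the groups did not overlap, the sleep fragmented values all being lower. Among all 14557 genes compared, 3.97% were lower in the same way. Counted by probe, 4 of the 13 were lower in this way, against 3.37% of all probes. Across the array, limma with Benjamini-Hochberg adjustment called 0.00% of 25230 probes at the threshold of 0.05 (0 probes, and 735 at an unadjusted p under that value). All 13 probes entered the comparison, 12 of them well above background on all 6 arrays. The Tgtp1 probe entered through the controls, being above background on 2 of the 3 sleep fragmented arrays.

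**Figure D1:**
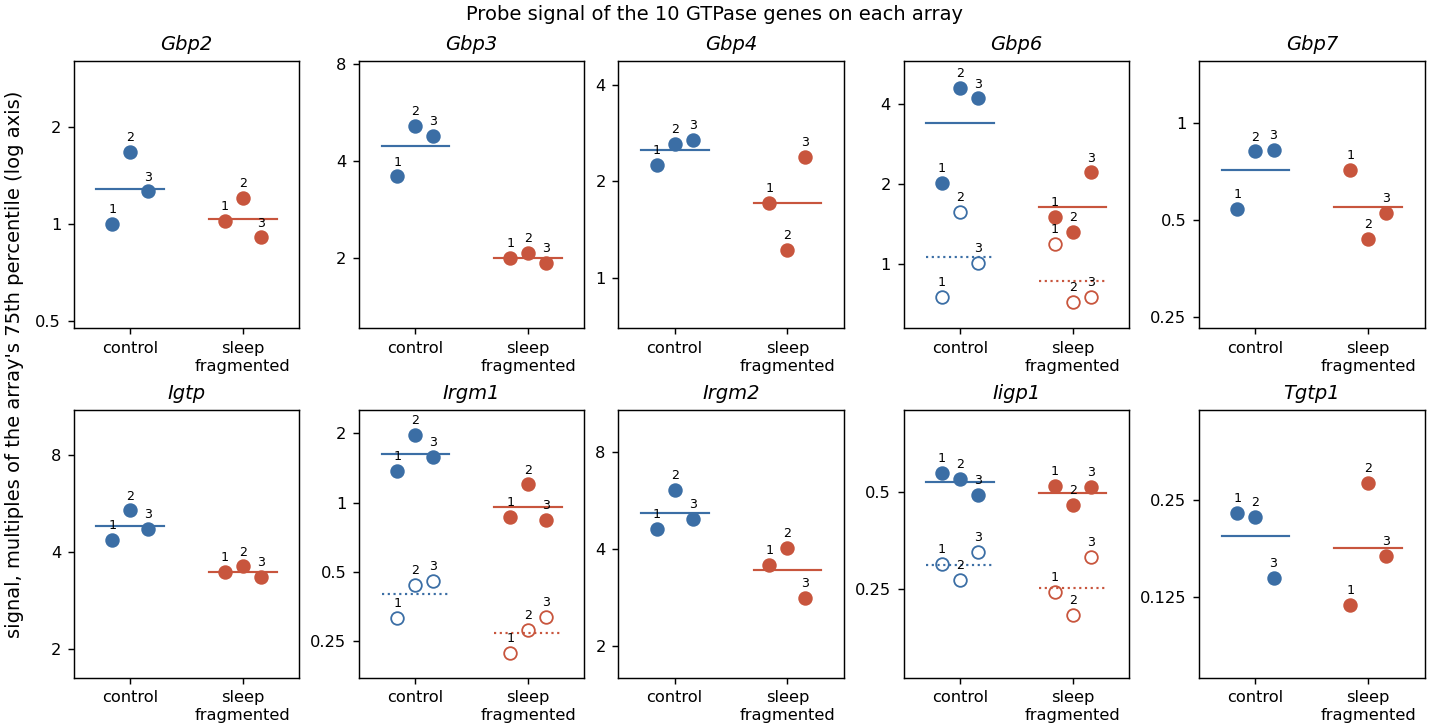
Signal of each probe of the 10 genes on each array, in multiples of the array's 75th percentile on a log axis, with the replicate number beside each point and a line at the mean of the log values. Filled points are the brightest probe of a gene and open points a second probe; Gbp3, Igtp, Irgm1 and Irgm2 are the genes whose filled points do not overlap between the groups.

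Gbp3 had the widest separation. It encodes a guanylate-binding protein of the cluster on chromosome 3, where Gbp2 and Gbp7 also lie. Its signals were 3.59, 5.14 and 4.81 on control replicates 1 to 3 and 2.01, 2.08 and 1.93 on the sleep fragmented arrays. The 3 sleep fragmented values lay within a narrow band (SD 0.05 on the log2 scale) and 0.79 log2 units under the lowest control. The log2 difference was -1.15 ± 0.20 (moderated SE, n = 3 per group), which is 2.23-fold lower. With single arrays left out it ranged from -1.31 to -1.05, and without both arrays high in atrial markers it was -1.08.

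The other chromosome 3 genes overlapped between the groups. Gbp2, whose protein is anchored to membranes by a lipid tail, stood at 0.998, 1.67 and 1.26 in controls and 1.02, 1.2 and 0.907 in sleep fragmented hearts. Its log2 difference was -0.31 ± 0.23, with control replicate 1 under 2 of the sleep fragmented arrays. Gbp7 stood at 0.541, 0.817 and 0.824 in controls and 0.718, 0.436 and 0.526 in sleep fragmented hearts, a difference of -0.38 ± 0.25. Here sleep fragmented replicate 1 lay among the controls.

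Gbp4 and Gbp6 belong to the cluster on chromosome 5 and were more scattered. Gbp4 had signals of 2.25, 2.62 and 2.69 in controls and 1.72, 1.23 and 2.39 in sleep fragmented hearts, a log2 difference of -0.55 ± 0.25. The controls were close together, and sleep fragmented replicate 3 lay above the lowest of them. The brighter Gbp6 probe read 2.01, 4.60 and 4.20 in controls and 1.5, 1.32 and 2.21 in sleep fragmented hearts (-1.05 ± 0.34). Its dimmer probe read 0.748, 1.57 and 1.01 against 1.19, 0.720 and 0.748 (-0.30 ± 0.31). Both Gbp6 probes put control replicate 1 within the range of the sleep fragmented arrays. They disagreed on sleep fragmented replicate 1, which was the highest of its group by the dimmer probe only. The genes of this cluster are close paralogs, so how far each probe reads its own transcript alone is uncertain. Without both arrays high in atrial markers the brighter probe stood at -0.67 and the dimmer one at 0.12.

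The regulatory Irg genes Igtp, Irgm1 and Irgm2 were each lower in all sleep fragmented hearts. Igtp, also called Irgm3, was measured by 1 probe printed on 10 spots of each array. The SD between spots of 1 array was 0.0733 to 0.0955 on the log2 scale. That SD covers error between spots only, not error between arrays or scans. Its signals were 4.35, 5.37 and 4.70 in controls and 3.47, 3.60 and 3.33 in sleep fragmented hearts. The groups did not overlap, and the log2 difference was -0.47 ± 0.18 (1.38-fold lower). The SD between arrays was 0.15 for controls and 0.06 for sleep fragmented hearts. Each group came from 1 scan, so these SDs hold no error between scans.

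Irgm1, needed in mice for resistance to intracellular bacteria and for autophagy in macrophages, read 1.37, 1.97 and 1.58 in controls and 0.863, 1.2 and 0.838 in sleep fragmented hearts with its brighter probe. The difference was -0.76 ± 0.22 (1.70-fold lower), without overlap. The dimmer Irgm1 probe gave 0.316, 0.439 and 0.455 against 0.222, 0.278 and 0.319, a difference of -0.56 ± 0.22. On that probe the highest sleep fragmented array lay 0.01 log2 units above the lowest control, so the groups just overlapped. Irgm2, which lies beside Igtp on chromosome 11, read 4.59, 6.09 and 4.93 in controls and 3.56, 4.01 and 2.81 in sleep fragmented hearts. Its difference was -0.59 ± 0.21 (1.51-fold lower), again without overlap.

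The effector Irg genes Iigp1 and Tgtp1 had the smallest differences of the 10. The brighter Iigp1 probe stood at 0.575, 0.550 and 0.491 in controls and 0.523, 0.456 and 0.521 in sleep fragmented hearts (-0.11 ± 0.18). Its dimmer probe gave 0.300, 0.267 and 0.326 against 0.245, 0.208 and 0.315 (-0.24 ± 0.21). On both probes the groups overlapped. Tgtp1 stood at 0.228, 0.221 and 0.143 in controls and at 0.118, 0.283 and 0.168 in sleep fragmented hearts (-0.12 ± 0.33). Its highest and its lowest array were both sleep fragmented ones, and without sleep fragmented replicate 1 the difference was 0.17.

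**Figure D2:**
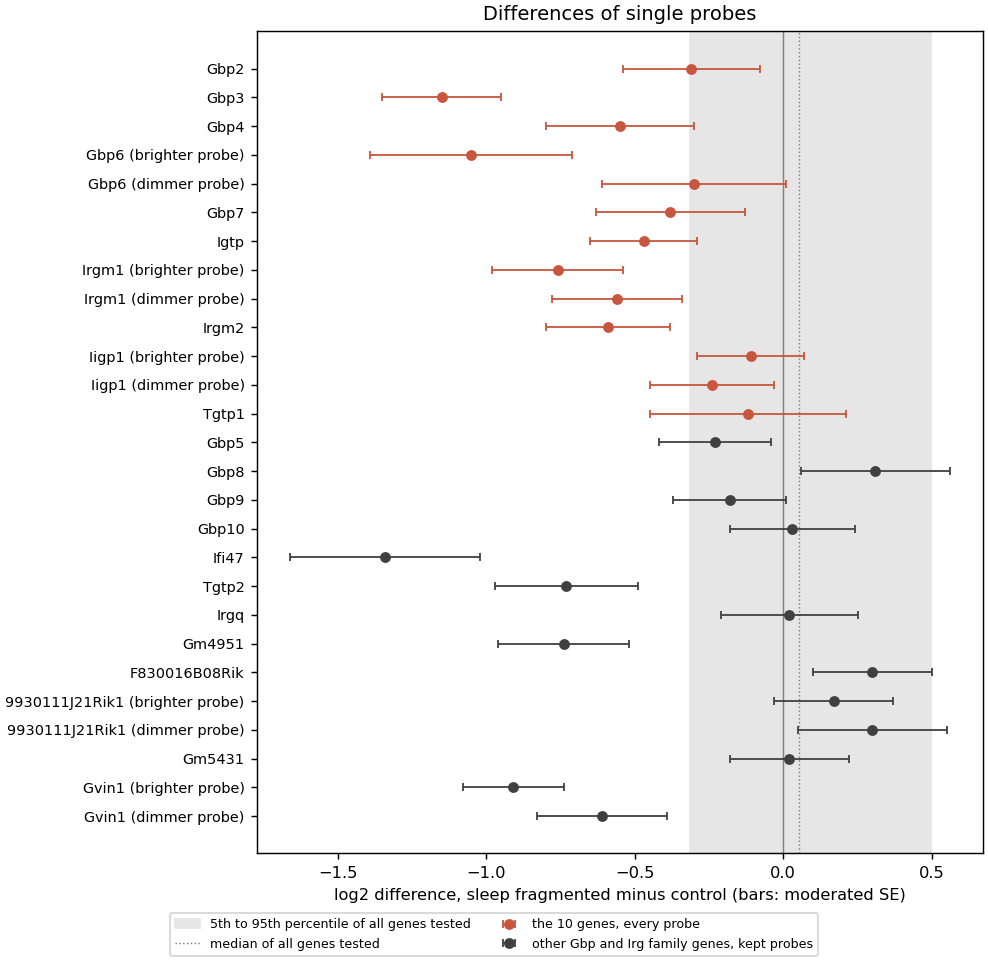
Log2 difference of each probe, sleep fragmented minus control, with its moderated SE. The grey band spans the 5th to the 95th percentile of all genes compared. Gbp3, the brighter Gbp6 probe, Gbp4, Gbp7, Igtp, both Irgm1 probes, Irgm2, Ifi47, Tgtp2, Gm4951 and both Gvin1 probes lie to its left. The dimmer Gbp6 probe, Iigp1, Tgtp1 and Gbp10 are among those inside it.

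By size, the genes ran Gbp3, Gbp6, Irgm1, Irgm2, Gbp4, Igtp, Gbp7, Gbp2, Tgtp1 and Iigp1. Neighbours in this order differed by less than the larger of their SEs. The 5 Gbp genes had a median log2 difference of -0.55 and the 5 Irg genes one of -0.47. Within the Irg family the 3 regulatory genes ran from -0.76 to -0.47 and the 2 effector genes stood at -0.12 and -0.11. The difference between regulatory and effector genes was not tested. The Tgtp1 probe was above background on 5 of the 6 arrays, and the probe of its near-identical neighbour Tgtp2 read lower in all sleep fragmented hearts. Other Irg genes outside the regulatory ones went both ways. Ifi47 (-1.34), Gm4951 (-0.74) and Tgtp2 (-0.73) were as low as the regulatory genes or lower. Irgq, Gm5431, 9930111J21Rik1 and F830016B08Rik stood at 0.02 to 0.30. The contrast between regulatory and effector genes therefore describes these 5 genes only.

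Outside the 10 genes, 18 further genes of both families were listed, 16 had a probe and 12 were bright enough to compare. Of these 12, 0 passed the adjusted limma test in either direction, and 6 had a negative and 6 a positive difference, with a median of -0.08. That median depended on the scaling: it was -0.25 with quantile normalization and in the authors' deposited table, -0.29 with median scaling and 0.05 with array weights. For 4 of the 12 (33.3%) the sleep fragmented arrays were all lower, against 3.97% of all genes, and for 0 they were all higher, against 3.65%. With array weights in the fit 1 of the 12, Gvin1, passed.

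The 4 were the Irg genes Ifi47, Tgtp2 and Gm4951 and the giant GTPase gene Gvin1, whose protein belongs to a related family of very large interferon-inducible GTPases. Ifi47 read 2.05, 5.38 and 3.13 in controls and 1.26, 1.37 and 1.24 in sleep fragmented hearts. It differed by -1.34 ± 0.32 (adjusted p = 0.938 by limma), more than any of the 10 genes, and its controls were far more scattered than its sleep fragmented arrays. Tgtp2 read 5.04, 7.64 and 5.51 against 4.03, 2.83 and 4.13, a difference of -0.73 ± 0.24 (adjusted p = 0.938 by limma). Tgtp1 and Tgtp2 share most of their sequence, so which of the genes each probe reads is uncertain. Gm4951, a neighbour of Iigp1, read 1.83, 2.96 and 1.93 against 1.43, 1.27 and 1.23 (-0.74 ± 0.22, adjusted p = 0.938 by limma).

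Gvin1 was measured by 2 probes. Its brighter probe read 6.69, 7.03 and 6.57 in controls and 3.70, 3.25 and 3.85 in sleep fragmented hearts, a difference of -0.91 ± 0.17 (1.88-fold lower, adjusted p = 0.825 by limma). Its dimmer probe read 1.02, 1.51 and 1.12 against 0.937, 0.687 and 0.756 (-0.61 ± 0.22). On both probes the groups were separate, and on the brighter one the controls were nearly equal.

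The remaining family genes overlapped between the groups. Gbp5, a guanylate-binding protein that promotes inflammasome assembly, lies beside Gbp7 and differed by -0.23 ± 0.19. The chromosome 5 genes Gbp9 and Gbp10 differed by -0.18 ± 0.19 and 0.03 ± 0.21, and Gbp8, above background on 2 of the 3 controls, by 0.31 ± 0.25. Among the Irg genes, Irgq differed by 0.02 ± 0.23, Gm5431 by 0.02 ± 0.20, 9930111J21Rik1 by 0.17 ± 0.20 and F830016B08Rik by 0.30 ± 0.20. For each of these 8 genes the adjusted p by limma was 0.938 or more. Gbp2b, Irgc1, 9930111J21Rik2 and Gm12250 were not well above background on every array of either group, and Gbp11 and Gm4070 had no probe that the accessions named.

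**Figure D3:**
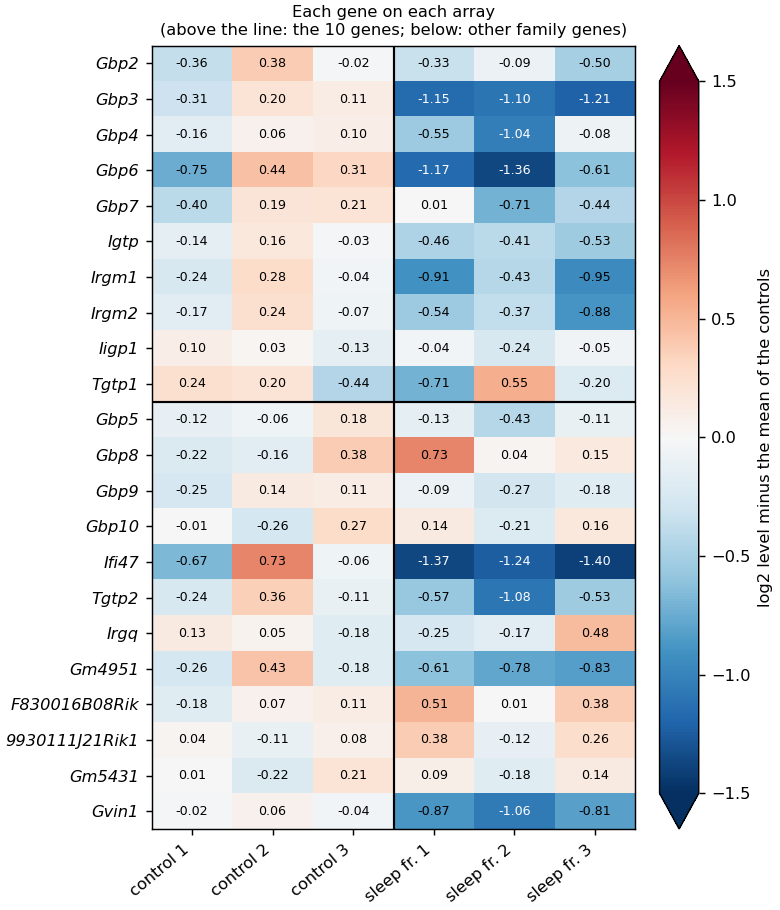
Log2 level of each gene on each array minus the mean of the 3 controls, for the 10 genes (above the line) and the 12 other family genes (below it). Gbp3, Ifi47 and Gvin1 are low on all 3 sleep fragmented arrays, at -1.10 or lower, -1.24 or lower and -0.81 or lower, and control replicate 2 is the highest array for 6 of the 10 genes.

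Array by array, the 3 sleep fragmented arrays had like averages over all 10 genes and the controls did not. The families differed within these averages. On sleep fragmented replicates 1 to 3 the Gbp genes averaged -0.64, -0.86 and -0.57 relative to the controls. The Irg genes averaged -0.53, -0.18 and -0.52. Relative to the mean of the controls, the average over the 10 genes was -0.58, -0.52 and -0.54 on sleep fragmented replicates 1 to 3 and -0.22, 0.22 and 0.00 on control replicates 1 to 3. Control replicate 2 was the highest of all 6 arrays for 6 of the 10 genes, and control replicate 1 was the lowest control for 8. Without control replicate 2 the median of the 10 genes was -0.43 and 4 did not overlap, where 7.47% of all genes were lower without overlap. Without control replicate 1 the median was -0.61 and 8 did not overlap, against 7.79% of all genes. Without both arrays high in atrial markers the median was -0.38, the 10 differences were still negative and 4 did not overlap, against 11.9% of all genes.

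The file headers also give each array a barcode. There are 3 of them, each on 1 control and 1 sleep fragmented array with the same replicate number, and what they mark is not stated. They are numbered 1 to 3 here, like the replicates. Within these numbers the median difference of the 10 genes was -0.38, -0.66 and -0.57. Gbp3 was lower within each (-0.84, -1.31 and -1.32), as were Gbp4, Gbp6, Igtp, Irgm1 and Irgm2. Gbp2, Gbp7, Iigp1 and Tgtp1 each had at least 1 number with the opposite sign, the largest being 0.41 for Gbp7 within number 1.

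Markers of other cell types differed between arrays. The 4 measured of 6 B cell markers summed to 7.27 on control replicate 2, against 0.523 and 0.714 on the other controls and 0.682 to 0.952 in sleep fragmented hearts; Ms4a1 was not bright enough to compare and Ighm had no named probe. The 8 measured of 9 macrophage markers summed to 13.4 to 17.9 in controls and 12.9 to 23.8 in sleep fragmented hearts, and Cd68 had no named probe. All 7 endothelial markers were measured, with sums of 59.6 to 71.1 in controls and 49.8 to 64.6 in sleep fragmented hearts. The 5 measured of 6 neutrophil markers summed to 32.2 to 45.9 in controls and 38 to 43.3 in sleep fragmented hearts, with no named probe for Ly6g. Most of that sum was Csf3r, at 27.2 to 45 in controls and 37.1 to 41.7 in sleep fragmented hearts. The neutrophil markers did not move together. S100a9 read 0.295, 3.28 and 1.14 on control replicates 1 to 3 and 0.650, 0.303 and 0.422 in sleep fragmented hearts. Control replicate 2 was the highest array for S100a9, S100a8 (0.955) and Retnlg (0.577). It was the lowest array for Csf3r (27.2) and Cxcr2 (0.202). The 5 fibroblast markers, all measured, summed to 82 to 89.6 in controls and 85.3 to 130 in sleep fragmented hearts, with a median log2 difference of 0.42. The T and NK cell markers, 7 of 11 measured and Cd3g, Cd8a, Cd8b1 and Klrb1c not, summed to 5.73 to 7.26 and 5.58 to 8.45. The 5 erythroid markers summed to 107 to 122 in controls and 166 to 403 in sleep fragmented hearts, without overlap. The part of these cells in the differences of the GTPase genes was not tested; the values without control replicate 2 are given above.

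Genes that carry the signals of interferon gamma and of type I interferon were compared from 1 list of 25 ligands, receptors, kinases, factors and inhibitors. Ifnar1, Ifnar2, Tyk2, Stat2, Irf9 and Usp18 in it belong to the type I signal. Of 18 measured, 0 passed in either direction over all probes, the median was -0.11, and 3 were lower and 3 higher without overlap (16.7% each, against 3.97% and 3.65% of all genes). None of the 5 ligand and inducer genes could be compared. The Ifng probe was well above background on 1 of the 6 arrays, Ifnb1 on 0, Il12a and Il18 (which drive its production) were too dim, and Il12b had no named probe. The receptor genes Ifngr1 (0.07 ± 0.20) and Ifngr2 (0.04 ± 0.22) and the kinase genes Jak1 (-0.07 ± 0.18) and Jak2 (-0.15 ± 0.18) had intervals that span 0, each with an adjusted p by limma of 0.938 or more. Irf1, a main activator of Gbp and Irg genes, read 8.04, 7.55 and 6.06 in controls and 5.96, 6.19 and 5.62 in sleep fragmented hearts (-0.28 ± 0.19, adjusted p = 0.938 by limma). Its groups overlapped through control replicate 3.

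The 3 pathway genes that were lower without overlap were Usp18, Irf9 and Stat2, all from the type I part of the list. Usp18, an inhibitor that acts at the type I interferon receptor, read 0.572, 0.997 and 0.615 in controls and 0.255, 0.220 and 0.182 in sleep fragmented hearts (adjusted p = 0.552 by limma). Irf9 and Stat2, partners in the factor that binds the response element, read 3.14 to 4.73 against 1.64 to 2.07 and 5.26 to 7.42 against 2.98 to 3.21 (adjusted p by limma of 0.856 and 0.938). With array weights these 3 passed. Higher without overlap were Irf2, a repressor at the same element (0.32 ± 0.17), the type I receptor kinase gene Tyk2 (0.33 ± 0.22) and Ciita (0.07 ± 0.16), none past the adjusted test. The type I interferon receptor genes Ifnar1 (-0.05 ± 0.22) and Ifnar2 (-0.12 ± 0.19) overlapped between the groups and did not pass.

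Of 27 other genes known to be induced by interferon gamma, 21 were measured, 0 passed, 15 were negative, and the median was -0.16. For 5 of the 21 (23.8%) the sleep fragmented arrays were all lower, against 3.97% of all genes. The largest of these were Ly6a, a surface protein of endothelial and stem cells (4.65, 6.90 and 6.82 in controls against 4.52, 3.30 and 3.26; -0.72 ± 0.23), the checkpoint ligand gene Cd274 (0.704, 0.985 and 0.853 against 0.633, 0.439 and 0.557; -0.64 ± 0.22) and the ubiquitin ligase gene Trim21 (1.97, 2.31 and 1.65 against 1.08, 1.60 and 1.16; -0.63 ± 0.22), each with an adjusted p by limma of 0.938. The antigen-processing genes Psmb8 (-0.49 ± 0.34) and Tap1 (0.26 ± 0.21) overlapped.

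Partners of the GTPases are the autophagy proteins that place them on vacuoles, the enzymes that add their lipid tails, and the caspases downstream. Of 26 such genes 23 were measured, 0 passed, and the median was -0.08. Without overlap, 3 were lower, Trim21 among them, and 1 was higher, where 3.97% and 3.65% of all genes were. Pggt1b, a subunit of the enzyme that adds geranylgeranyl tails, differed by -0.37 ± 0.19, and Fntb, a subunit of the enzyme that adds farnesyl tails, by 0.53 ± 0.22 (both adjusted p = 0.938 by limma). The autophagy genes Atg5 (-0.10 ± 0.18), Atg12 (-0.08 ± 0.17) and Gabarapl1 (0.04 ± 0.19) and the caspase genes Casp1 (-0.24 ± 0.34) and Casp4 (-0.25 ± 0.34) did not pass.

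**Figure D4:**
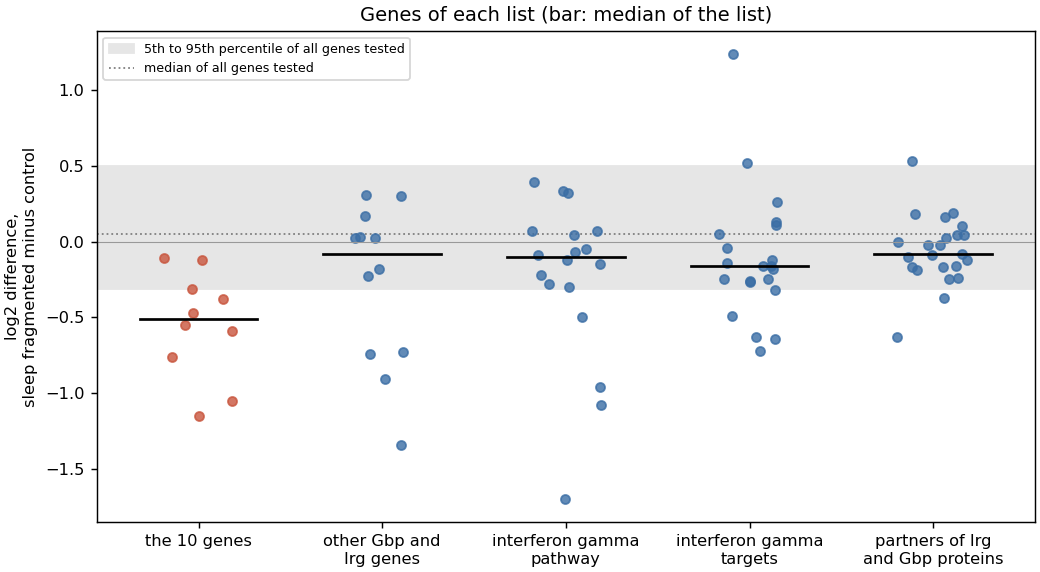
Log2 difference of each measured gene, sleep fragmented minus control, in the 5 lists, with the median of each list as a bar and the 5th to 95th percentile of all genes as a grey band. The 10 GTPase genes have a median of -0.51; the other lists have medians of -0.08, -0.11, -0.16 and -0.08, with a few genes far below them.

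The genes most like the group across the 6 arrays were sought among 14523 others, by the root-mean-square difference between the centred log2 profile of a gene and the mean profile of the 10. The closest were Ankrd34a (0.082), Fbxo45 (0.100), Trim34b (0.107), Fbl (0.111), Zfp110 (0.113), Parp10 (0.114), Cd63 (0.114) and Dhx32 (0.116). Of the 10 genes, Igtp lay nearest to their own mean profile (0.067) and Tgtp1 farthest from it (0.483). This measure favours genes with a change of the same size, and 8 such genes out of many carry no test of their own; each had an adjusted p by limma of 0.938 for the groups.

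**Figure D5:**
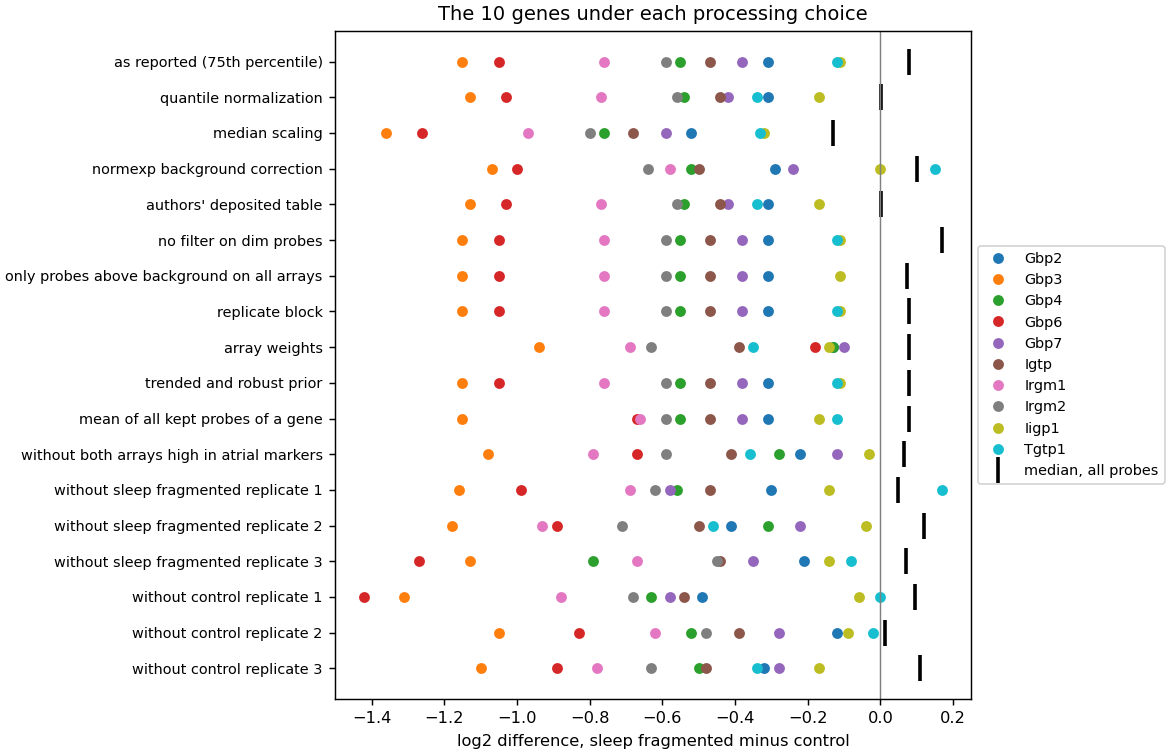
Log2 difference of each of the 10 genes under every processing choice and with arrays left out, with the median of all probes as a vertical bar. Gbp3 lies at -0.94 or lower throughout, and a gene passes 0 only for Tgtp1 and Iigp1.

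Gbp3 was the lowest or next to lowest gene under the settings run. The scaling moved all genes together: with median scaling the median of all probes was -0.13 and that of the 10 genes -0.72, and the distance between the 2 medians was -0.59, as in the values above. With that scaling 6 of the 10 did not overlap, against 8.07% of all genes. Array weights, which estimate how far each array scatters, gave 5.81 to control replicate 1 and 3.1 to sleep fragmented replicate 3 and 0.345 to 0.586 to the other 4, and moved single genes: Gbp6 stood at -0.18, Gbp4 at -0.13, Gbp3 at -0.94 and Tgtp1 at -0.35, and the median of the 10 genes at -0.27. The weighted values thus rest largely on control replicate 1 and sleep fragmented replicate 3, and for the 10 genes they carry no test. Under normexp background correction Tgtp1 stood at 0.15 and Iigp1 at 0.0029.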

How the data were processed

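RNA labelled with Cy3 was hybridised to 1-colour Agilent arrays (1 sample each). Per the file headers, the deposited intensity values are background-subtracted, detrended spot signals from Agilent Feature Extraction 11.0.1.1 (10.5.1.1 in the submitters' processing notes; the difference was not resolved), with other values, flags of 0 or 1, for background, outliers and saturation (0 saturated spots). The authors also deposited a table of log2 values with the same median (5.53) and upper quartile (7.66) in every column, as quantile normalization gives; no source used here says how it was made, and it served as an alternative.

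From the intensities, log2 values were taken and the 75th percentile of each array was subtracted; control and outlier spots were dropped, and the repeat spots of a probe were averaged. Probes stayed in if all arrays of either group had them well above background (25230 of 39429). RefSeq accessions named 69.1% of probes through a gene table of GRCm38.p6; the array was designed on another build. Groups came from the end of each title. They were compared with limma 3.58.1 in R 4.3.3 (default eBayes, two-sided, Benjamini-Hochberg over all kept probes, threshold 0.05), tested on simulated data. The members and lists were chosen with earlier results of these data known. Named are all 10 genes, every measured family gene, up to 3 non-overlapping genes with the largest difference of each other list, and the 8 nearest profiles; receptors, kinases, Irf1, Psmb8, Tap1, autophagy and caspase genes were added for their roles after their values were seen. Alternatives were other scalings, background correction, filters, priors, weights, a block and left-out arrays. The number of arrays limits the precision.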

Additional observations from a re-analysis of the deposited data

How the results depend on the processing

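All 10 differences stayed negative except for Tgtp1 (-0.46 to 0.17 with single arrays left out, the latter without sleep fragmented replicate 1, and 0.15 with normexp) and Iigp1 (0.0029 with normexp); the dimmer Gbp6 probe turned to 0.12 without both arrays high in atrial markers. Normexp, run on the median spot signal, and the setting without those 2 arrays were chosen after seeing the data. The median over the 10 genes was -0.72 with median scaling and -0.27 with array weights, and between -0.61 and -0.43 with single arrays left out. The number of the 10 that did not overlap was 4 to 8 with single arrays left out, 8 being without control replicate 1; in the same settings 7.07% to 10.2% of all genes were lower without overlap. The number of probes past the adjusted threshold was 0 as reported, 3 with normexp, 4 with the replicate block, 5 without both arrays high in atrial markers and 53 with array weights, and 0 with single arrays left out. With array weights 1 other family gene and 3 pathway genes passed, in a fit that rests largely on control replicate 1 and sleep fragmented replicate 3. The cause of these changes was not tested. Same-numbered arrays deviated together with correlations of 0.06, 0.55 and 0.21, and Myl4 followed the replicate number in both groups. The labels do not say whether the numbers pair the arrays, and the main fit does not pair them. Its SEs therefore include any difference that same-numbered arrays share. With the replicate block 2018 probes had an unadjusted limma p under 0.05, against 735 without it. The median of the 10 genes was -0.51, as without the block, and 0 genes of the lists passed. The barcodes divide the arrays as the replicate numbers do, so a block on them is the same fit. Dim probes such as Tgtp1 limit what can be said of their genes.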

Other observations

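Ube2l6, which encodes the enzyme that passes Isg15 to its targets and was in the list of genes induced by interferon gamma, read above all controls on 2 of the 3 sleep fragmented arrays. It read 9.72 on sleep fragmented replicate 1, 3.50 and 1.83 on the other sleep fragmented arrays, and 1.42, 2.13 and 1.56 in controls. Its log2 difference of 1.24 ± 0.51 had an adjusted limma p of 0.938, and the gene was chosen after its values were seen. The 5 erythroid markers summed to 403, 265 and 166 on sleep fragmented replicates 1 to 3 and to 111, 122 and 107 on the controls, in the same order among the sleep fragmented arrays, and their part in this difference was not tested.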
